A study of Mus musculus with 1298 samples.

Results

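The Cebp factors are the 5 genes *Cebpa*, *Cebpb*, *Cebpd*, *Cebpg* and *Cebpz*. They were chosen by name, as the rows of these genes in the deposited count tables, and all 5 were found among the 17634 genes of the 10x table, the 22894 of the Smart-seq2 (ss2) single-cell table and the 22938 of the bulk table. The study followed the progeny of Pax7-expressing somite cells of the mouse trunk, which give rise to muscle, dermis and brown fat. All embryos carried Pax7-CreER and R26R-stop-EYFP, so that tamoxifen given to the pregnant mouse at E9.5 (75 µg per g, a single dose) switched on YFP permanently in cells with active Pax7, and YFP+ cells were sorted from several pooled embryos at E16.5 and at the earlier stages E14.5 and E12.5. There was 1 10x library per stage, with 1277 ss2 cells from 15 plates and 18 bulk libraries. There was no untreated genotype, since every library carried the same alleles and the same tamoxifen dose. Cells cultured from E14.5 embryos were grown in DMEM with serum (6 libraries) or in ADM, the study's adipogenic differentiation medium, whose composition is not given in the sources used here (6 libraries), and 6 further bulk libraries held freshly sorted cells, 4 of them Pdgfra+ and 2 of them Pdgfra-/Cd36+. The labels place all 6 at E16.5, but the study's text places the sorted Pdgfra+/Thy1- cells at E14.5, so the stage of 2 of the Pdgfra+ libraries is uncertain. The Pdgfra+ cells had also been split by the surface protein Thy1, but the column names show this sign for none of the cultured or sorted Pdgfra+ libraries, so these were compared by medium or sort alone.

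C/EBP proteins are basic leucine zipper transcription factors that bind DNA as dimers. In cultured preadipocytes, *Cebpb* and *Cebpd* are induced early by adipogenic hormones and act before *Cebpa*, which together with *Pparg* holds the adipocyte programme on. *Cebpb* and *Cebpd* are also induced by cytokines, glucocorticoids and cell stress. *Cebpg* encodes a short family member without a transactivation domain that partners with other basic leucine zipper proteins such as Atf4. *Cebpz* carries the family's name but encodes a CCAAT-box-binding protein of another structure, related to ribosome assembly factors.

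On GRCm38 (GENCODE vM21), *Cebpa* lies on chromosome 7 (35119293 to 35121928, plus strand), *Cebpb* on chromosome 2 (167688915 to 167690418, plus strand) and *Cebpd* on chromosome 16 (15887286 to 15891031, plus strand), each in 1 exon. *Cebpg* (chromosome 7, 35046422 to 35056573, minus strand) lies 62719 bases from *Cebpa*, with 2 exons in its main isoform. *Cebpz* (chromosome 17, 78919006 to 78937066, minus strand) has 16 exons, and its span shares 1301 bases with *Cebpzos* on the opposite strand, part of them exonic in both. Smart-seq2 does not mark strand, so reads from these bases cannot be assigned to either gene in the ss2 and bulk tables. RefSeq promoters (GRCm38.p6) were matched for 3 of the 5 members. The 200 bases before each start are shown so that these 3 members, whose patterns over the classes differed, can be compared by the motifs they hold. They were searched on both strands for TTGCG (the core of a C/EBP site), TGACG (the core of a CREB/ATF site), CCAAT and TATAAA, and capitals mark the matches found.
Cebpa, chr7:35119093-35119292, plus strand: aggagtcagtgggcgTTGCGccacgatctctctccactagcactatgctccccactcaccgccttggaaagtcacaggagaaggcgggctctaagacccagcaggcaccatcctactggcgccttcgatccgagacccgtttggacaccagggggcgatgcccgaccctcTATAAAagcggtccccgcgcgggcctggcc
Cebpb, chr2:167688715-167688914, plus strand: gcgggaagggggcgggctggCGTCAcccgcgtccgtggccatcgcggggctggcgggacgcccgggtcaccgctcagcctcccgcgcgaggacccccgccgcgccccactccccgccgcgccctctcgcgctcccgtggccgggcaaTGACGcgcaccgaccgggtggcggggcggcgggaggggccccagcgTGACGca
Cebpg, chr7:35056567-35056766, minus strand: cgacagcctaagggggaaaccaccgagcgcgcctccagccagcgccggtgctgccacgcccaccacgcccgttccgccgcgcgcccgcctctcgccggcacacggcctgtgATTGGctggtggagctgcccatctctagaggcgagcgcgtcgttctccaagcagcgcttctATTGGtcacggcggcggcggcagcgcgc
The *Cebpa* window held TTGCG, found in 12.4% of 32851 promoters of the same length, and TATAAA, found in 9.96%. The *Cebpb* window held TGACG at 3 positions (15.7% of promoters held it at least once), and the *Cebpg* window held CCAAT at 2 positions on its other strand (29.3%). A match describes letters in these windows, not a bound site.

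Of 3916 deposited cells 3852 passed the study's limits, 2921 of them on 10x and 931 on ss2. The 10x library of E14.5 was the deepest, with a median of 5930 unique molecular identifiers (UMIs) per cell, against 2185 for E12.5 and 1607.5 for E16.5, and bulk libraries held 3390851 to 35332908 counts. Clusters, made without the 5 members, were named from marker genes as early progenitor (EP)-like, late progenitor (LP)-like, dermal fibroblast (DF)-like, brown adipocyte (BA)-like, pericyte (PE)-like, early muscle (EM)-like, late muscle (LM)-like, neuron (N)-like and neural progenitor (NP)-like cells. The EP-like cluster rested on a low marker score (0.609) and was led by *Hmga2*, *Alx1* and *Msx1* rather than by its own markers, and 20 cells led by *Col2a1* and *Acan* stayed unnamed. In the bulk libraries *Pdgfra* was at 271.8 to 487.6 CPM in the 4 sorted Pdgfra+ libraries and at 6.03 and 8.41 CPM in the Cd36+ libraries, while *Cd36* was at 1510 and 1262 CPM in the Cd36+ libraries and far lower, down to 51.6 CPM, in the Pdgfra+ ones. In both media the libraries fell into sets of 3 by their column names, set a and set b, and these differed in the *Thy1* transcript (set a 0.992 to 9.03 CPM, set b 25.6 to 64.8 CPM). Among the sorted libraries the names ran the other way, with *Thy1* at 109.3 and 86.2 CPM in set a and at 5.87 and 4.77 CPM in set b, so the same letter does not mark the same cells.

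*Cebpa* was highest in BA-like cells on both platforms. On 10x its level there was 150.9 CPM (95% Poisson interval 119.3 to 188.4, from 78 UMIs), against 19.9 CPM (14.8 to 26.3) in LP-like, 14.6 CPM (9.03 to 22.3) in DF-like and 13.4 CPM (5.37 to 27.5) in EP-like cells. These mesenchymal classes could not be ranked, since their intervals overlapped, and all lay below the BA-like interval. In the muscle and neural classes *Cebpa* was near 0, with 1 UMI over all EM-like cells, 3 over all N-like cells, and none in LM-like or NP-like cells, where a count of 0 allows up to 3.74 and 9.87 CPM. A UMI of *Cebpa* was found in 33.3% of BA-like cells (median 3032 UMIs) and in none of the deeper LM-like cells (median 5106.5 UMIs), for which a count of 0 leaves room for 1.83% of cells with a UMI. This limits cells with a UMI and not cells that express the gene. On ss2 *Cebpa* was counted in 12 of the 15 BA-like cells kept by the study's limits (49.4 CPM), in 19 LP-like cells (13.4% of them, 3.75 CPM) and in 10 DF-like cells (8.26%, 2.095 CPM).

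*Cebpb*, induced early in adipogenesis, was spread over all mesenchymal classes. On 10x it stood at 356.1 CPM (306.5 to 411.4) in BA-like, 265.6 CPM (194.4 to 354.2) in PE-like, 247.1 CPM (227.999 to 267.3) in LP-like and 226.4 CPM (202.5 to 252.4) in DF-like cells, and the PE-like interval overlapped those of the other 3. These values pool stages that the classes share unequally. At E16.5 alone *Cebpb* was at 359.1 CPM (308.7 to 415.4) in BA-like cells, above PE-like (128.4 CPM, 51.6 to 264.7), DF-like and LP-like cells, the last at 75.3 CPM. Again pooled over stages, EP-like cells, nearly all from E12.5, were at 87.7 CPM (64.2 to 117.01) and EM-like cells at 55.4 CPM (46.6 to 65.4). The lowest pooled levels were in LM-like (24.9 CPM), NP-like (16.46 CPM) and N-like cells (12.8 CPM), whose intervals overlapped. On ss2 the order at the top was the same in part, with 30.2 CPM in BA-like, 22.98 CPM in PE-like, 14.3 CPM in DF-like and 6.00 CPM in LP-like cells, but 1.13 CPM in EP-like cells, below EM-like cells (2.44 CPM). After thinning to 1000 UMIs, *Cebpb* was detected in 31.01% of BA-like, 15.8% of LP-like, 14.6% of DF-like, 4.87% of EM-like and 1.94% of N-like 10x cells. The unthinned shares were 54.7%, 42.4%, 30.3%, 18.2% and 4.16%.

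*Cebpd*, unlike *Cebpa* and *Cebpb*, was low in BA-like cells. Its 10x levels were highest in PE-like (109.7 CPM, 66.04 to 171.3) and LP-like cells (97.6 CPM, 85.8 to 110.7), which could not be ranked, followed by DF-like cells (31.3 CPM, 22.8 to 41.8) and BA-like cells (17.4 CPM, 7.96 to 33.1). The BA-like interval overlapped those of DF-like, LM-like (12.47 CPM), EP-like (11.4 CPM) and EM-like cells (7.12 CPM). These values pool stages, while BA-like cells came nearly all from E16.5. At E16.5 alone *Cebpd* was at 45.6 CPM (20 UMIs) in DF-like, 36.9 CPM (10 UMIs) in EM-like and 27.6 CPM (2 UMIs) in LM-like 10x cells, scaled to the genes of both tables. On ss2 PE-like cells stood at 156.1 CPM and LP-like cells at 75.5 CPM, against 14.4 CPM in DF-like and 6.19 CPM in BA-like cells. The 3 LP-like clusters differed among themselves. The cluster led by *Ly6a*, *Mfap5* and *Pi16* was at 251.8 CPM on 10x, while the clusters led by *Tnmd* and by *Ngfr* were at 68.9 and 79.1 CPM. *Cebpb* ran the other way in these clusters on 10x, at 81.1 CPM in the first and at 300.4 and 216.03 CPM in the others. On 10x these clusters coincide with stage, since 99.1% of the cells of the first came from E16.5 and 96.1% and 98.2% of those of the others from E14.5, so that cluster and stage cannot be told apart there. On ss2 *Cebpd* was at 114.8 CPM in the first and at 53.6 and 100.4 CPM in the others, and *Cebpb* at 8.69, 6.38 and 3.90 CPM. The members took no part in forming the clusters.

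*Cebpg* and *Cebpz* varied less between classes, with 1 exception. Pooled over stages, *Cebpg* was highest on 10x in NP-like (82.3 CPM, 53.2 to 121.5) and N-like cells (66.1 CPM, 54.98 to 78.8), between 28.5 and 56.1 CPM in the mesenchymal and EM-like classes, and lowest in LM-like cells (6.24 CPM, 2.03 to 14.6). On ss2 LM-like cells were again lowest (8.49 CPM), and the other classes held 12.9 to 28.996 CPM. The classes share the stages unequally. At E12.5 alone *Cebpg* was at 79.1 CPM in EM-like, 70.4 CPM in N-like and 56.6 CPM in EP-like 10x cells, scaled to the genes of both tables. *Cebpz* lay between 84.8 and 100.7 CPM on 10x in all classes other than NP-like (131.6 CPM, 94.05 to 179.3) and PE-like cells (51.96 CPM, 23.8 to 98.6), and all 9 intervals overlapped one another. On ss2 it lay between 34.6 and 55.5 CPM. *Cebpz* was detected in 16.4% to 34.2% of the cells of each class on 10x and in 57.7% to 100% on ss2.

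**Figure D1:**
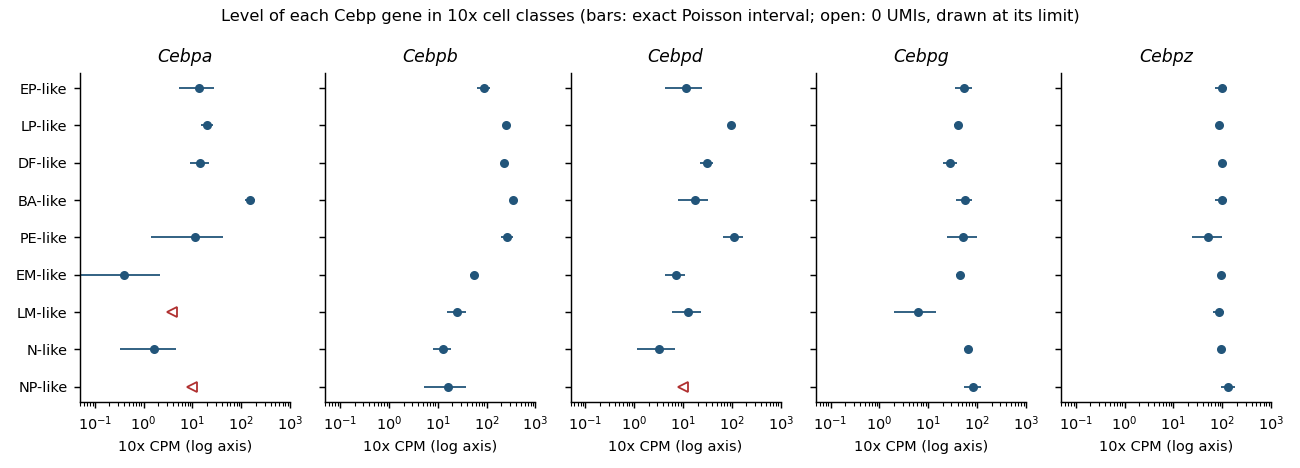
Level of each Cebp gene in the 9 named 10x cell classes, in CPM on a log axis, with exact 95% Poisson intervals for counting error; open triangles mark classes with 0 UMIs at the level that 3 UMIs would give. *Cebpa* stands out in BA-like cells (150.9 CPM), *Cebpd* in PE-like and LP-like cells (109.7 and 97.6 CPM), and *Cebpg* is lowest in LM-like cells (6.24 CPM).

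With 1 library per platform and stage, changes over stages are values with no test, and the intervals cover counting error only. In LP-like 10x cells the stages also differ in cluster, with 95.3% of the E16.5 cells in the *Ly6a* cluster, so the stage values below repeat the cluster values given above. *Cebpb* in LP-like cells on 10x went between the 2 later stages from 276.8 CPM (254.96 to 300.1) to 75.3 CPM (50.01 to 108.8), and its level in DF-like cells from 286.2 CPM (253.6 to 321.7) to 99.7 CPM (73.003 to 133.004). On ss2 the DF-like cells showed the same direction (19.4 to 9.41 CPM), but the LP-like cells the opposite one (4.02 to 7.84 CPM). *Cebpd* in LP-like cells was higher at E16.5 on both platforms, at 71.2 CPM (60.3 to 83.5) and then 249.96 CPM (201.7 to 306.2) on 10x and at 33.97 and then 111.98 CPM on ss2. Each of the 4 ss2 plates at E16.5 (71.1 to 143.3 CPM in LP-like cells) lay above each of the 3 plates with at least 5 such cells at E14.5 (33.2 to 37.6 CPM). *Cebpd* in EM-like cells also had its highest value at E16.5 on both platforms (36.1 CPM on 10x and 16.6 CPM on ss2). *Cebpg* had lower 10x levels at later stages in EM-like cells, at 77.2, 40.4 and 28.8 CPM, and in LP-like cells, at 44.5 and then 18.8 CPM. On ss2 *Cebpg* in EM-like cells was at 16.7, 21.2 and 15.6 CPM. *Cebpz* in LP-like cells was at 85.7 and 83.3 CPM on 10x but at 22.7 and 63.01 CPM on ss2, so the platforms did not show the same course.

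**Figure D2:**
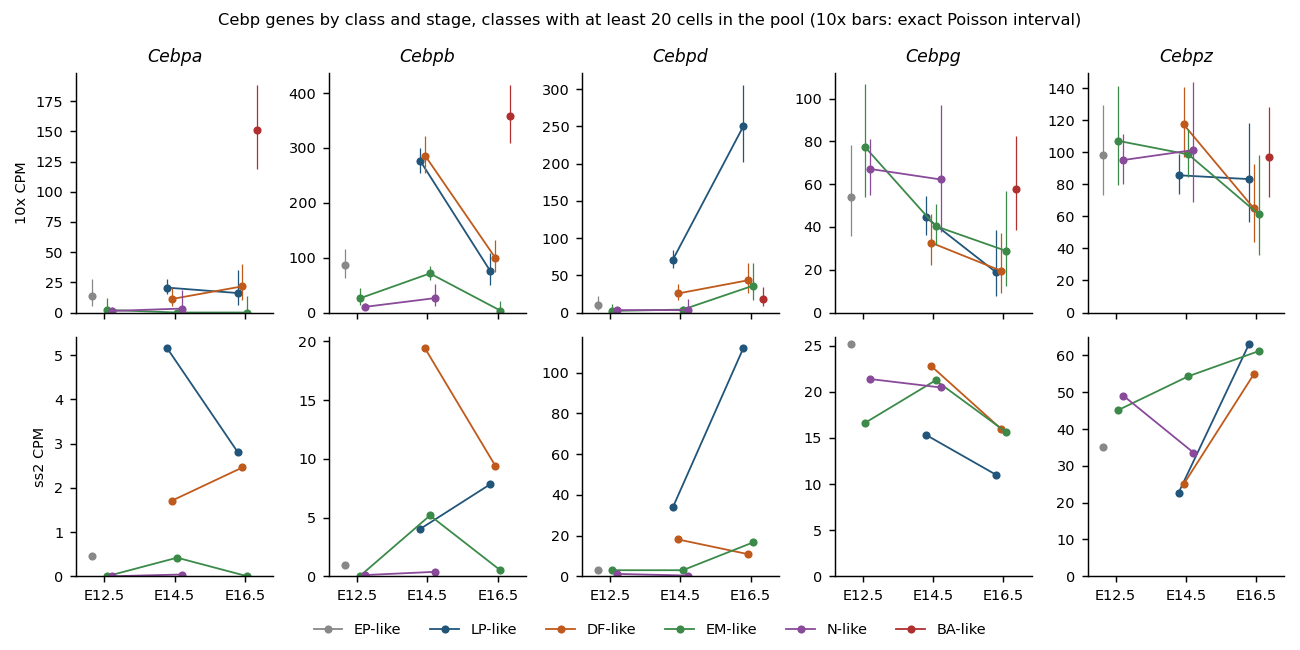
Levels in CPM of each Cebp gene by stage in 6 cell classes with at least 20 cells in the pool, on 10x (upper row, bars are exact 95% Poisson intervals) and on ss2 (lower row). *Cebpd* in LP-like cells is higher at E16.5 than at E14.5 on both platforms (249.96 against 71.2 CPM on 10x, 111.98 against 33.97 CPM on ss2), whereas *Cebpb* in LP-like cells goes down on 10x and up on ss2.

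Class differences were tested on counts summed per class and pool, a pool being 1 platform and stage, with edgeR's quasi-likelihood test and Benjamini-Hochberg adjusted p under 0.05 over all genes. LP-like cells, found at E14.5 and E16.5, differed from EP-like cells, found at E12.5, in 1 of the 5 members, with 5.69% of 14049 genes past the threshold. *Cebpd* was higher in LP-like cells (log2 fold change 4.82, SE 0.80, adjusted p = 0.0046). *Cebpb* and *Cebpa* had log2 fold changes of 2.24 (SE 0.62, adjusted p = 0.056) and 2.23 (SE 0.82, adjusted p = 0.14) and did not pass, nor did *Cebpg* (-0.43) or *Cebpz* (0.51). These classes share no pool, so stage and class cannot be told apart. The *Cebpd* call was lost without the E12.5 10x sum (adjusted p = 0.059) and without the E12.5 ss2 sum (adjusted p = 0.52), each of which leaves 1 EP-like sum that is assumed to vary like the others.

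Against EM-like cells, the muscle progenitors led by *Myf5* and *Msc*, in the same pools, LP-like cells were higher in the 3 activators. Of 12865 genes 35.7% passed in this comparison, so that 3 of 5 members stands beside a high share over all genes. *Cebpd* was higher in LP-like cells in each of 4 pools (262.2 against 36.9 CPM on 10x at E16.5, 74.3 against 3.99 CPM at E14.5, both on the genes of both tables), with a log2 fold change of 3.26 (SE 0.23, adjusted p = 6.3e-06). *Cebpa* had 50 UMIs in LP-like and 0 in EM-like cells over the shared 10x pools, at least 14.1-fold higher when 3 UMIs over the group stand for 0, and on ss2 it was at 5.30 against 0.431 CPM at E14.5 and at 2.88 CPM against 0 counts at E16.5. Its adjusted p was 0.0032, and the fitted log2 fold change of 5.82 (SE 1.15) depends on how counts of 0 are treated. *Cebpb* was higher by 1.90 (SE 0.63, adjusted p = 0.039), although in the ss2 E14.5 pool it was at 4.14 CPM in LP-like and at 5.30 CPM in EM-like cells, and the call was lost when any 1 of the other 3 pools was left out (adjusted p 0.065 to 0.12). *Cebpg* (-0.32) and *Cebpz* (-0.32) did not pass.

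DF-like and LP-like cells, which share 4 pools, differed in *Cebpd* alone among the members, with 13.2% of 13099 genes past the threshold. *Cebpd* was lower in DF-like cells in every pool. It stood at 26.5 against 74.3 CPM and 45.6 against 262.2 CPM on 10x, and at 18.6 against 34.9 CPM and 11.2 against 114.6 CPM on ss2, for E14.5 and E16.5 in turn, and fell by 2.08 on the log2 scale (SE 0.36, adjusted p = 0.0024). *Cebpb* had a log2 fold change of 0.74 (SE 0.33, adjusted p = 0.19) and was largest in the ss2 E14.5 pool (19.9 against 4.14 CPM). *Cebpa* (-0.65, SE 0.49), *Cebpg* (0.23, SE 0.29) and *Cebpz* (0.02, SE 0.18) did not pass.

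In the muscle lineage, LM-like cells, which express *Myog* and sarcomere genes, were lower than EM-like cells in *Cebpg* (log2 fold change -1.87, SE 0.53, adjusted p = 0.011 in edgeR), with 26% of 8087 genes past the threshold. The difference was seen at E14.5 on both platforms (3.34 against 41.03 CPM on 10x, 2.39 against 21.8 CPM on ss2), and on 10x at E12.5 (26.97 against 79.1 CPM) and E16.5 (0 against 8 UMIs), while on ss2 at E16.5 the levels were 14.4 and 16.04 CPM. The *Cebpg* call was lost without either of the E14.5 pools (adjusted p 0.063 without 10x and 0.12 without ss2). *Cebpa* was too low to be tested, and *Cebpb* (-0.61, SE 1.07), *Cebpd* (1.24, SE 0.61, adjusted p = 0.14) and *Cebpz* (0.15, SE 0.21) did not pass. Between N-like and EM-like cells none of the 4 tested members passed (*Cebpb* -1.97, SE 0.94, *Cebpd* -1.64, SE 0.96, *Cebpg* -0.19, SE 0.26, *Cebpz* -0.54, SE 0.24), beside 31.2% of 12394 genes, and their unadjusted p-values in edgeR lay between 0.056 and 0.49. In DESeq2 none passed either, with adjusted p-values from 0.086 to 0.82. *Cebpb* passed when doublets were removed (-2.27) or 10x pools were used alone (-1.77).

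BA-like cells shared only the 10x E16.5 library with LP-like cells, so this comparison has no test and the intervals are conditional exact ones for counting error. *Cebpa* was 9.35 times as high in BA-like cells (4.10 to 26.3, from 76 against 6 UMIs), *Cebpb* 4.77 times (3.19 to 7.38, with 28 UMIs in LP-like cells) and *Cebpg* 3.06 times (1.31 to 8.27, from 29 against 7 UMIs). *Cebpd* ran the other way, at 0.0714 of the LP-like level (0.0317 to 0.142, from 9 against 93 UMIs). *Cebpz* was level within its interval (1.17, 0.729 to 1.89). Within BA-like 10x cells, UMIs of both *Cebpa* and *Cebpb* were found in 30 cells (18.9%), next to 18.2% given by multiplying the shares with each. In PE-like against LP-like cells of that library, the intervals of *Cebpa* (1.14, 0.0247 to 9.38), *Cebpb* (1.71, 0.629 to 4.00), *Cebpd* (1.18, 0.645 to 2.01) and *Cebpz* (0.661, 0.129 to 2.12) all held 1, and *Cebpg* had 0 against 7 UMIs.

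**Figure D3:**
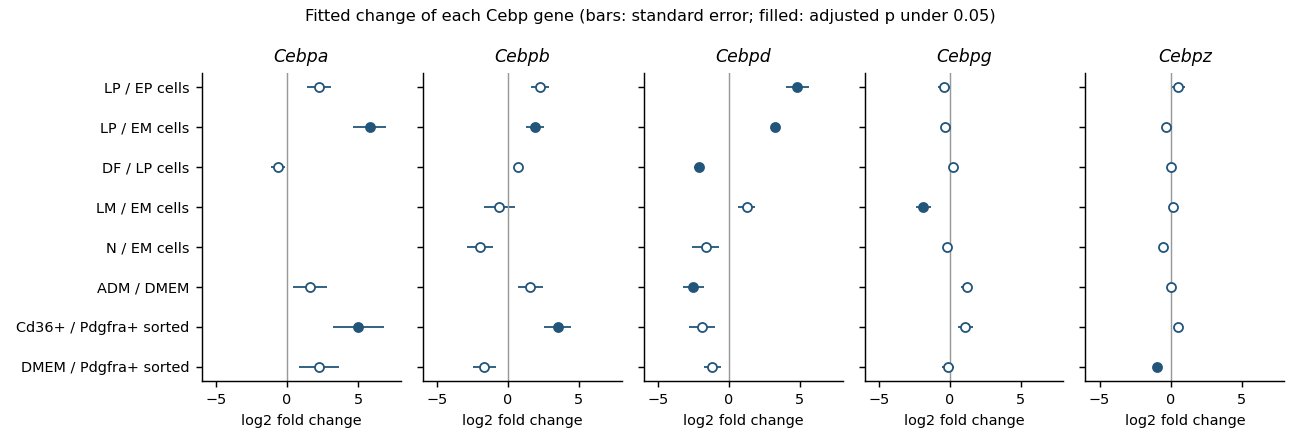
Fitted log2 fold changes (points) with standard errors (bars) of each Cebp gene in 8 comparisons of single-cell sums and bulk libraries; filled points have an adjusted p under 0.05. *Cebpd* is called in 4 of the comparisons, higher in LP-like cells than in the EP-like or EM-like ones, and lower in DF-like than in LP-like cells and in ADM than in DMEM.

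In bulk libraries fewer cells of a type and less RNA per cell cannot be told apart. *Cebpa* divided the cultured libraries more by set than by medium. In ADM it was at 25.1, 22.8 and 21.5 CPM in set a and at 0, 1.41 and 0.295 CPM in set b, and in DMEM at 18.8, 13.8 and 13.1 CPM in set a and at 0.241, 0.114 and 0.0886 CPM in set b. The sets did not overlap in either medium, and the media overlapped when taken whole. Within set a every ADM library lay above every DMEM library, and within set b the media overlapped. Adipocyte genes moved with the same sets, with *Fabp4*, the fatty acid carrier of adipocytes, at 35470 to 38230 CPM in ADM set a, 1619 to 1719 CPM in ADM set b, 5445 to 8589 CPM in DMEM set a and 0.144 to 0.310 CPM in DMEM set b. *Cebpa* in ADM set b thus stayed at 0 to 1.41 CPM in libraries where *Fabp4* was at 1619 CPM or more. The sorted Pdgfra+ libraries held 4.48, 2.08, 5.04 and 5.29 CPM of *Cebpa*, and the Cd36+ libraries 92.5 and 135.4 CPM.

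*Cebpb* was low in culture. It had 11, 7 and 6 counts in ADM set a (1.09, 0.624 and 0.510 CPM), 0 counts in all 3 libraries of ADM set b, 0.154 to 0.509 CPM in DMEM set a and 0 to 0.221 CPM in DMEM set b. In sorted cells it was at 1.21 to 2.56 CPM in the Pdgfra+ libraries and at 16.3 and 21.1 CPM in the Cd36+ libraries, so that the sorted and cultured libraries did not overlap in unscaled CPM. The TMM factors were 0.396 to 0.415 in ADM set a and 2.09 to 2.15 in the Pdgfra+ libraries. With these factors *Cebpb* in the Pdgfra+ libraries no longer lies above ADM set a. *Cebpd* had at most 5 counts in any ADM library (0 to 0.645 CPM) and stood at 4.10, 5.03 and 2.55 CPM in DMEM set a and at 1.40, 1.07 and 0.620 CPM in DMEM set b. Its highest values were in the sorted Pdgfra+ libraries of set b (16.8 and 31.6 CPM), those with little *Thy1* transcript, against 3.80 and 4.68 CPM in set a and 1.77 and 4.64 CPM in the Cd36+ libraries.

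*Cebpg* was found in every library. It was at 11.3 to 12.8 CPM in ADM set a, 5.76 to 7.74 CPM in ADM set b, 6.91 to 9.65 CPM in DMEM set a, 5.10 to 6.17 CPM in DMEM set b, 16.53 to 24.2 CPM in sorted Pdgfra+ libraries and 28.4 and 39.7 CPM in Cd36+ libraries. *Cebpz* was at 3.21 to 4.85 CPM in ADM set a, 9.70 to 11.5 CPM in ADM set b and 7.12 to 10.3 CPM in DMEM, and at 37.5 to 50.6 CPM in sorted Pdgfra+ and 41.8 and 59.3 CPM in Cd36+ libraries. For *Cebpz* all 6 sorted libraries thus lay above all 12 cultured ones. The TMM normalization factors were 0.396 to 0.415 in ADM set a, 0.772 to 0.917 in the other cultured libraries and 1.66 to 2.15 in the sorted libraries, so scaled differences can depart from the CPM given here.

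**Figure D4:**
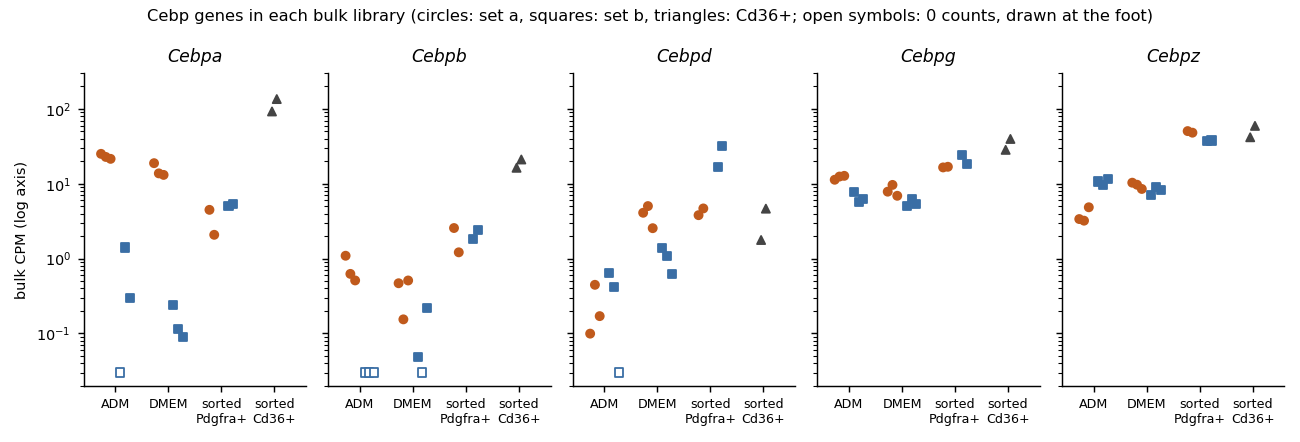
CPM of each Cebp gene in each of the 18 bulk libraries on a log axis, by medium or sort; circles are set a, squares set b and triangles Cd36+ libraries, and open symbols at the foot are libraries with 0 counts. *Cebpa* separates set a from set b in both media (13.1 to 25.1 against 0 to 1.41 CPM), *Cebpb* and *Cebpa* are highest in the Cd36+ libraries, and *Cebpd* is highest in the sorted Pdgfra+ libraries of set b.

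Between ADM and DMEM, 1 of the 5 members passed in edgeR's quasi-likelihood test over all 18 libraries, beside 9.16% of 17586 genes. *Cebpd* was lower in ADM (log2 fold change -2.5004, SE 0.74, adjusted p = 0.044), with 1 DMEM library (0.620 CPM) below the highest ADM library (0.645 CPM). The call did not hold with 10 of the 12 cultured libraries left out in turn (adjusted p from 0.052 to 0.10). *Cebpg* had a log2 fold change of 1.19 (SE 0.37, adjusted p = 0.054), *Cebpa* of 1.60 (SE 1.203, adjusted p = 0.42), *Cebpb* of 1.58 (SE 0.89, adjusted p = 0.27) and *Cebpz* of 0.01 (SE 0.16). With the sets as groups, chosen after the column names were seen, so that libraries are compared within their own set, *Cebpa* was higher in ADM by 1.80 (adjusted p = 0.0060) and *Cebpg* by 0.90 (adjusted p = 1.3e-05), and 35.3% of genes passed. *Cebpb* then had a group at 0 and gave no value. Calls over all genes were 57% higher in ADM under TMM and 21.1% higher with library totals alone, which moved the median of all genes from -0.02 to -0.39.

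Freshly sorted Cd36+ cells were higher than sorted Pdgfra+ cells in *Cebpa* (log2 fold change 5.02, SE 1.78, adjusted p = 0.040) and *Cebpb* (3.49, SE 0.96, adjusted p = 0.012), beside 31.8% of 17586 genes. In both genes the 2 Cd36+ libraries lay above all 4 Pdgfra+ libraries. If 2 of the Pdgfra+ libraries are of E14.5, stage enters this comparison and cannot be told apart from the sort. *Cebpd* (-1.89, SE 0.91, adjusted p = 0.12), *Cebpg* (1.105, SE 0.52, adjusted p = 0.12) and *Cebpz* (0.48, SE 0.23, adjusted p = 0.12) did not pass. The *Cebpa* call was lost with any 1 of the 6 sorted libraries left out (adjusted p 0.077 to 0.13), and the *Cebpb* call without either Cd36+ library (adjusted p 0.057 and 0.080). The sorted libraries are technical duplicates of 1 pool of cells by the study's methods, and the cultured libraries are wells, so p-values measure the spread between such samples. Except with the sets as groups, the ADM, DMEM and Pdgfra+ groups each mix set a and set b. Their spread then also holds the difference between the sets. Markers of blood cells were present in sorted libraries and nearly absent in culture. The 5 erythroid markers summed to 535.7 to 968.5 CPM in Pdgfra+, 276.5 and 510.8 CPM in Cd36+ and at most 0.510 CPM in cultured libraries, and the 12 myeloid markers to 30.8 to 57.2 CPM in Pdgfra+, 17.6 and 18.3 CPM in Cd36+ and 0.510 to 4.25 CPM in cultured libraries. Their part in the *Cebpb* levels of sorted cells was not tested.

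DMEM-cultured cells against sorted Pdgfra+ cells gave 1 member past the threshold, beside 53.9% of all genes tested. *Cebpz* fell by 0.96 on the log2 scale (SE 0.18, adjusted p = 2.6e-04). *Cebpa* (2.25, SE 1.43), *Cebpb* (-1.68, SE 0.81, adjusted p = 0.088), *Cebpd* (-1.17, SE 0.62, adjusted p = 0.12) and *Cebpg* (-0.13, SE 0.40) did not pass. The cultured cells came from E14.5 and the sorted ones, by the labels, from E16.5, so culture and stage cannot be told apart, and this comparison shares the DMEM libraries with the first and the Pdgfra+ libraries with the second. Of the calls over all genes 37.5% were higher in DMEM under TMM and 5.75% with library totals, under which the median of all genes moved from -0.31 to -1.65 and *Cebpb* (-3.05), *Cebpd* (-2.53) and *Cebpg* (-1.47) also passed, beside 70.6% of all genes.

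Per kilobase of exon, the only bulk scale on which levels of different genes were compared, *Cebpa* led the Cd36+ libraries at 35.1 and 51.4 CPM per kb, ahead of *Cebpb* (10.9 and 14), *Cebpz* (8.97 and 12.7), *Cebpg* (5.05 and 7.06) and *Cebpd* (0.473 and 1.24). The ranges of *Cebpb* and *Cebpz* overlapped. In sorted Pdgfra+ libraries the highest was *Cebpz* (8.04 to 10.9 CPM per kb), which overlapped at its lower end with *Cebpd* (1.01 to 8.44), and *Cebpg* was at 2.94 to 4.31, *Cebpa* at 0.788 to 2.01 and *Cebpb* at 0.806 to 1.70. In both media *Cebpb* and *Cebpd* were at most 1.34 CPM per kb. These orders hold for the bulk libraries only. In the 10x levels above, which are not scaled by length, *Cebpb* stood above *Cebpa* in BA-like cells. Pooled over stages, *Cebpb* was also the highest member in LP-like and DF-like 10x cells. At E16.5 alone *Cebpd* was above *Cebpb* in LP-like 10x cells (262.2 against 78.9 CPM, here scaled to the genes of both tables). The reason for the different orders was not tested.

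Other genes of the C/EBP network were taken from lists. Of 22 adipocyte genes that lie downstream of *Cebpa* and *Pparg*, 7 were higher and none lower in ADM (median log2 fold change 2.89, beside -0.02 over all genes and 9.16% of genes called), led by *Ucp1* (12.75, adjusted p = 0.0078 in edgeR), the uncoupling protein of brown fat, and *Cidea* (8.51, adjusted p = 0.043). These values rested on set a, since *Ucp1* and *Cidea* were at 0 in all 3 libraries of ADM set b. The summed level of the 22 genes was 87570 to 91890 CPM in ADM set a and 2887 to 3110 CPM in ADM set b, the latter below DMEM set a (10060 to 14960 CPM) and above DMEM set b (320.7 to 349.8 CPM). In Cd36+ against Pdgfra+ cells 8 of 22 were higher (median 4.83, beside -0.05 over all genes and 31.8% of genes called), with *Cfd* (7.19), *Cidec* (6.75), *Ucp1* (6.46) and *Pck1* (6.41) at the top, and *Klf15*, a factor that promotes adipogenesis, was higher by 6.04 (adjusted p = 9.0e-04 in edgeR). In LP-like against EM-like cells 9 of 15 adipocyte genes were higher, beside 35.7% of all genes called. In DF-like against LP-like cells 4 of 15 were lower, *Cd36*, *Adipoq*, *Fabp4* and *Lpl*, beside 13.2% of all genes called. The classes were made from the expression of these genes among others, and *Cd36* encodes the protein used in sorting, so their direction is not independent of how the groups were made.

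Inducers and partners moved as follows. Of 11 glucocorticoid-responsive genes, 5 were higher in ADM and 1 lower, among them *Pdk4* (4.96), *Mt2* (4.85), *Mt1* (3.34) and *Klf9* (1.65), beside 9.16% of all genes called. Their summed level was 1464 to 1715 CPM in ADM set a but 224.1 to 285.2 CPM in ADM set b, which overlapped DMEM (196.7 to 263.2 CPM). *Ddit3*, a stress-induced C/EBP relative, and *Trib3*, whose protein binds Atf4, were higher in ADM by 2.55 and 2.38, while *Atf4*, the partner of Cebpg, was not called. In DMEM against sorted Pdgfra+ cells, 12 of 14 integrated stress response genes were higher (median 2.06, beside -0.31 over all genes and 53.9% of genes called), including *Trib3* (3.95), *Chac1* (3.32) and *Asns* (3.11). *Trib2* and *Trib1*, whose proteins direct Cebpa to degradation, were higher in LP-like cells than in EM-like ones (2.5 and 2.09). *Trib2* was lower in Cd36+ than in Pdgfra+ cells (-3.51), where *Cebpa* was higher, while *Trib1* overlapped between these libraries (144.6 to 195.5 against 157.6 to 348.4 CPM). Any link of *Trib1* or *Trib2* to the *Cebpa* levels was not tested. Ribosome biogenesis genes, set beside *Cebpz*, were lower than in EM-like cells in 16 of 22 cases for LP-like cells, beside 35.7% of all genes called. For N-like cells 13 of 22 were lower, beside 31.2% of all genes called. *Cebpz* did not pass in either comparison. In DMEM against sorted cells, where *Cebpz* fell, 5 of 22 were higher and 5 lower, beside 53.9% of all genes called. In Cd36+ against Pdgfra+ cells 11 of 22 were higher and none lower, beside 31.8% of all genes called. There *Cebpz* had a log2 fold change of 0.48 that passed only with the sets as groups (0.50).

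The early adipogenic regulators had 0 of 11 genes higher and 1 lower in ADM (*Ebf1*, -0.70), a share near that of all genes (9.16%), with 1 higher and 2 lower in Cd36+ against Pdgfra+ cells (*Klf15*, *Egr2* at -3.20 and *Klf4* at -1.82), beside 31.8% of all genes, and 1 higher and 6 lower in DMEM against sorted cells, beside 53.9% of all genes. Of 10 inhibitors of adipogenesis 2 were lower in ADM, *Gata2* (-3.38) and *Dlk1* (-1.54), beside 9.16% of all genes called. In Cd36+ cells 4 were lower and 1 higher, led by *Zfp521* (-4.66), beside 31.8% of all genes called. Of 11 acute-phase and inflammatory genes, known targets of *Cebpb* and *Cebpd*, 2 were higher and 5 lower in Cd36+ cells, among them *C3* (6.14) and *Ccl2* (-4.90), beside 31.8% of all genes called. In LP-like against EM-like cells 5 of 6 tested were higher, beside 35.7% of all genes called.

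Immediate-early genes, which tissue dissociation induces along with *Cebpb* and *Cebpd*, also differed between these groups. Their summed level over 18 genes was 7778 to 9949 CPM in sorted Pdgfra+ libraries, 2658 and 3640 CPM in Cd36+ libraries and 105.1 to 605.6 CPM in culture, where all 18 were lower in DMEM than in sorted Pdgfra+ cells, beside 53.9% of all genes called. Of the 18, 15 were higher in LP-like cells than in EM-like ones, 10 higher in LP-like than in EP-like cells and 9 lower in Cd36+ than in Pdgfra+ cells. Over all genes the shares called in these comparisons were, in the same order, 35.7%, 5.69% and 31.8%. On 10x at E16.5 their sum was 6674 CPM in LP-like, 7934 CPM in DF-like and 2438 CPM in BA-like cells, the class with the highest *Cebpb* and a low *Cebpd*. Their part in the *Cebpb* and *Cebpd* differences was not tested.

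Over the 18 bulk libraries the genes nearest to *Cebpa* in log2(CPM + 1) included *Coq8a* (Pearson's r = 0.989), *Acvr1c* (0.982), *Srebf1* (0.981) and *Cluh* (0.980), and within the 12 cultured libraries *Acvr1c* (0.998) was again among them. Those nearest to *Cebpd* included *Pam* (0.942), *Phex* (0.933), *Mylpf* (0.932) and *Bmper* (0.930), with *Aldh2* (0.975) first within culture. Among the genes nearest to *Cebpb* were *Hemk1* (0.980), *Pld6* (0.979), *Atp10d* (0.978) and *Myo5c* (0.976), and *Cebpg* was nearest to *Pabpc4* (0.978), *Ahcyl1* (0.977), *Ybx3* (0.977), *Eif1ad* (0.975) and *Pnrc1* (0.975). *Cebpz* was nearest to *Cbx1* (0.994), *Rrp1b* (0.990), *Snrnp200* (0.990), *Slc44a1* (0.989) and *Bap1* (0.989), and within culture to *B230307C23Rik* (0.988), *Tbl3* (0.975) and *Utp14a* (0.973). Among the members themselves *Cebpb* and *Cebpg* were most alike (0.892) and *Cebpa* and *Cebpd* least (0.174). These correlations describe libraries that share a medium or sort and, in part, a pool of cells.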

How the data were processed

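The 10x values are counts of unique molecular identifiers per gene and cell, deposited by the authors after Cell Ranger, and cells had been filtered before deposit. The ss2 values are estimated counts, made by the authors with kallisto 0.44.0 and tximport and rounded here for the tests. The bulk values are whole-number read counts per gene as deposited by the authors, and 16 of their 18 column names do not show the Thy1 sign. The bulk aligner and counter are not given in the sources used here, and the labels' stage (E16.5) was used for all sorted bulk libraries.

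Cells with at most 8% mitochondrial counts and YFP counts above 0 were kept, on ss2 with at least 4000 genes and on 10x with at most 15000 UMIs. Platforms were integrated and clustered in Seurat 5.3.0 without the members and the immediate-early genes. Clusters were named from marker lists by a score of at least 0.5 and at least 3 markers found in 5% of cells, limits set after the scores were seen. Scrublet marked 24 of 2921 10x cells (0.822%), which were kept, and 3 barcodes occurred in more than 1 10x library. Class sums needed 20 cells. Class levels in CPM are scaled to all counts of the class, and those beside the tests to the 15147 genes of both tables. Sums and bulk libraries were compared with edgeR 4.0.16 (TMM, filterByExpr, quasi-likelihood test, adjusted p under 0.05), with DESeq2 1.42.0 as an alternative, in R 4.3.3. The planned Thy1 comparisons were not run. Intervals are at the 95% level, cover counting error only, and a count of 0 is given the limit of 3 counts.

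The members and gene lists were chosen with earlier results of these data known. All 5 members were named in every comparison, with the list genes of largest change past the threshold (up to 4 a list) and up to 2 that did not pass, and the 5 genes most correlated with each member, some of which are not reported here. Tests were tried on simulated data. For ADM against DMEM, with 17586 genes simulated, 55% of genes changed 4-fold and 17% of those changed 2-fold were recovered, and 1.37% of calls were false. In the other comparisons 21% to 86% of 4-fold and 0% to 34% of 2-fold changes were recovered, and false calls made up 0% to 23.6%, the highest share being that of LP-like against EP-like cells (14049 genes simulated). The replicate numbers did not pair the cultured libraries by the check given under the dependence on processing, which could not decide this for the sorted ones.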

Additional observations from a re-analysis of the deposited data

Results flagged for a closer look

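Among 31 groups of 4 to 10 pools or libraries examined for a value far from the rest, 2 had one, and chance gives about 1 in 20. *Cebpb* in DF-like against LP-like cells had a log2 ratio of 2.27 in the ss2 E14.5 pool, far above the other 3 pools, its gap being 0.833 of the whole range. *Cebpg* in LP-like against EM-like cells had a log2 ratio of 0.18 in the 10x E14.5 pool, the gap being 0.852 of the range, and was below 0 in the other 3 pools.

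In 4 cases the pools of E14.5 and E16.5 lay on opposite sides of 0, and the difference was not tested. Each stage had only 1 pool per platform, and many pairs of gene and comparison were examined, so chance alone can give such splits. The mean log2 ratio of *Cebpz* in DF-like against LP-like cells was 0.29 in the earlier and -0.27 in the later pools, and in LP-like against EM-like cells -0.71 and 0.26. In LM-like against EM-like cells *Cebpz* had -0.24 and 0.52, and *Cebpb* had -4.47 and 2.62, the latter resting on sums of as few as 1 count.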

How the results depend on the processing

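In the bulk comparisons, a threshold of 0.01 ended the calls of *Cebpd* in ADM against DMEM (-2.5004) and of *Cebpa* (5.02) and *Cebpb* (3.49) in Cd36+ against sorted Pdgfra+ cells. With the sets of column names as groups, an alternative added after seeing the data, calls were gained for *Cebpa* (1.80) and *Cebpg* (0.90) in ADM against DMEM, *Cebpd* (-1.40), *Cebpg* (1.12) and *Cebpz* (0.50) in Cd36+ against Pdgfra+, and *Cebpb* (-2.10) and *Cebpd* (-1.00) in DMEM against Pdgfra+, where *Cebpa* turned to -0.14. *Cebpg* was also called in ADM against DMEM with RLE factors (1.30) and DESeq2 (1.30), and in Cd36+ against Pdgfra+ with only these libraries (1.14). Library totals, also added later, gave DMEM against Pdgfra+ calls for *Cebpb* (-3.05), *Cebpd* (-2.53) and *Cebpg* (-1.47). *Cebpz* in ADM against DMEM, near 0, turned to -0.057 with no filter and -0.31 with totals.

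With the replicate block, *Cebpd* in ADM against DMEM (-2.58, adjusted p = 0.073) and *Cebpa* in Cd36+ against Pdgfra+ (5.03, adjusted p = 0.081, edgeR) lost their calls, and genes called went from 9.16% to 2.51% in ADM against DMEM and from 53.9% to 25.5% in DMEM against Pdgfra+. Deviations of same-numbered libraries correlated at -0.048 to 0.021 in culture, so the cultured libraries share only a number. Among sorted libraries they correlated at -0.024 to 0.177, and pairs with different numbers mirrored this at -0.177 to 0.024. The sorted sets are too small for the check to decide whether numbers pair them.

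In the single-cell comparisons, *Cebpb* lost its LP-like against EM-like call with RLE factors (1.88), and gained one in N-like against EM-like cells with doublets removed (-2.27), members kept in clustering (-2.35) or 10x pools alone (-1.77). In LP-like against EP-like cells *Cebpa* (2.11) and *Cebpb* (2.05) gained calls in DESeq2, *Cebpb* also at resolution 0.4 (2.35), and *Cebpd* lost its call with platforms clustered alone (4.75), where *Cebpg* turned to 0.20. In DF-like against LP-like cells *Cebpg* turned to -0.34 with 10x pools alone and *Cebpz* to -0.10 at resolution 0.4. The causes were not tested.

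With 1 library or pool left out, values ranged in ADM against DMEM from -2.83 to -2.19 for *Cebpd*, 0.98 to 1.35 for *Cebpg* and -0.054 to 0.089 for *Cebpz*, in Cd36+ against Pdgfra+ from 4.75 to 5.17 for *Cebpa* and 3.32 to 3.62 for *Cebpb*, in DMEM against Pdgfra+ from -0.24 to 0.020 for *Cebpg*, in DF-like against LP-like cells from -0.085 to 0.18 for *Cebpz* and -2.64 to -1.43 for *Cebpd* (the latter without the ss2 E16.5 pool, still called), in LP-like against EM-like cells from 0.94 to 2.80 for *Cebpb* and 4.21 (without the ss2 E16.5 pool, still called) to 5.82 for *Cebpa*, in LM-like against EM-like cells from -2.45 to 1.01 for *Cebpb* and -2.84 to -1.15 for *Cebpg*, in N-like against EM-like cells from -2.65 to -1.16 for *Cebpb*, and in LP-like against EP-like cells from 1.29 to 3.05 for *Cebpb*, 3.77 to 5.22 for *Cebpd* and -0.22 to 0.76 for *Cebpz*.

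The share of tested genes that was called also moved by over 1.5 times in count. ADM against DMEM gave 9.16%, but 1.11% at the 0.01 threshold, 19.4% in DESeq2, 5.69% with only these libraries, 35.3% with sets, 4.94% with totals and 3.08% to 15.9% with a library left out. Cd36+ against Pdgfra+ gave 31.8%, but 16.2% at 0.01, 53.1% with sets and 11.2% and 12.3% without a Cd36+ library. With 10x pools alone, which leave fewer genes to test, the number called was 624 instead of 1725 for DF-like against LP-like, 3014 instead of 4598 for LP-like against EM-like, 789 instead of 2103 for LM-like against EM-like and 2367 instead of 3866 for N-like against EM-like cells. LP-like against EP-like cells gave 5.69%, but 3.49% with 10x pools alone, 1.63% with platforms alone, 10.7% in DESeq2 and, in edgeR without the E12.5 ss2 sum, 0 genes, where 657 had an unadjusted p under 0.05. No value could be had for *Cebpb* in ADM against DMEM with sets, since 1 set was at 0, for *Cebpa* in LP-like against EM-like cells with 10x pools alone or without the ss2 E14.5 pool, or for *Cebpa* in LM-like against EM-like cells with no filter. Low counts limit *Cebpb* and *Cebpd* in culture.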
